A study of Mus musculus with 6 samples.

Results

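The genes described here are 31 cell cycle genes, chosen by name from the 55487 gene identifiers in the count tables. They comprise 9 genes of DNA replication, 18 genes of mitosis and 4 further genes of dividing cells (Mki67, Top2a, Hmgb2 and Stmn1). All 31 matched 1 identifier each and passed the filter on low counts. RNA came from non-myocyte cells of mouse hearts (strain C57BL/6) that were enriched on magnetic beads against Cd11b, a surface integrin of myeloid cells. The WT group (Egfr f/f) held 3 pools of hearts with floxed Egfr, the gene of the epidermal growth factor receptor. The KO group (Egfr mKO) held 3 pools with Egfr deleted in myeloid cells. Each WT pool lists 5 animals in its title, and the KO pools list 5, 5 and 6. The driver of the deletion, the sex and the age of the animals are not stated in the labels.

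A cell that divides first copies its DNA and then segregates it. The Mcm2 to Mcm7 helicase unwinds DNA ahead of the replication fork, Pcna clamps the polymerases onto it, and Rrm2 and Tyms supply nucleotides. Mitosis is started by cyclins A2, B1 and B2 with their kinase Cdk1, is carried out by the spindle and kinetochore proteins, and is ended by the ubiquitin ligase that Cdc20 and Ube2c serve. Genes of replication are classical targets of E2F factors, and genes of mitosis are switched on later through promoter elements named CHR and CCAAT boxes. In the adult heart most resident macrophages are not dividing, whereas immature T cells of the thymus divide rapidly.

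The promoters of 4 members are shown because they held the widest and the narrowest range of RNA level over the 6 pools in each role, among members with a promoter entry. They run from 250 bases before to 50 after the transcription start and are from RefSeq, build GRCm38.p6, 5′ to 3′ on the gene's strand. Rrm2 (chr12:24708004-24708303, plus strand) and Mcm3 (chr1:20820263-20820562, minus strand) are replication genes. Cenpf (chr1:189688037-189688336, minus strand) and Cks2 (chr13:51644982-51645281, plus strand) are mitosis genes. Capitals mark matches on either strand to 3 kinds of motif: CHR, which is TTTGAA or otherwise TTTAAA, the CCAAT box, and E2F-like letters, which are any of the words TTCCCGC and also TTCGCGC and also TTGCCGC and also TTGGCGC.
Rrm2: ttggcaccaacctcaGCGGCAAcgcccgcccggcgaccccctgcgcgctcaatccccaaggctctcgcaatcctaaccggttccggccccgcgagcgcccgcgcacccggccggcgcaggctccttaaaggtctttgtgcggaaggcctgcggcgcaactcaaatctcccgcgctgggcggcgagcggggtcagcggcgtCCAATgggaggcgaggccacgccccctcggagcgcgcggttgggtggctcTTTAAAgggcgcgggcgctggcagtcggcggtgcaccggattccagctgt
Mcm3: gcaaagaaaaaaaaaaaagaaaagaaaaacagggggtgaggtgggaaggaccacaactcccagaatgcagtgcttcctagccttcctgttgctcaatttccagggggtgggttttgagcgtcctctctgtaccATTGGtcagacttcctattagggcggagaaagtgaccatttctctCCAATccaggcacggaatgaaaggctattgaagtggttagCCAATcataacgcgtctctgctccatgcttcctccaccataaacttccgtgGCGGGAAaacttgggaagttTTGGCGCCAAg
Cenpf: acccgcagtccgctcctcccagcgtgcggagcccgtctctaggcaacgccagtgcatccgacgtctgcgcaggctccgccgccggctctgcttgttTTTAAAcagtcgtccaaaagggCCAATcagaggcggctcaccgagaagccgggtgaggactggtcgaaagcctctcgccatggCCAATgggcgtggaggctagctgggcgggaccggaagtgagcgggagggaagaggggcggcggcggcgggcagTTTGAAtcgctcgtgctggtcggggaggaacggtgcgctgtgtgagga
Cks2: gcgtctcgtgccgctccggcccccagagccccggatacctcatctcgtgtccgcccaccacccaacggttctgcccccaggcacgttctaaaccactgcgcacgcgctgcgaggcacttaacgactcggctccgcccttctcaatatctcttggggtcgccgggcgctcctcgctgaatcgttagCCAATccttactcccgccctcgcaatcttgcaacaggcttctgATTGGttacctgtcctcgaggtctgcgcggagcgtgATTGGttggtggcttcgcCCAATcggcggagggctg

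Of the 31 members, 26 had a promoter entry, and Mcm7 had 2. CHR letters stood in 12 of the 15 mitosis promoters and in 3 of the 9 replication promoters (Mcm2, Mcm5 and Rrm2), against 27.6% of all 32851 promoters of the same length. E2F-like letters stood in 6 of the 9 replication promoters and 2 of the 15 mitosis promoters, against 9.57% of all. The CCAAT box stood in 8 of the 9 and 13 of the 15, against 37.4%. Mcm3 held 3 E2F-like matches, the last pair overlapping, and no CHR letters. Rrm2 held 1 match of each kind, with TTTAAA beginning at the annotated start. Cenpf held 2 CHR and 2 CCAAT matches. Cks2, alone of the 4, held CCAAT boxes only, with 4 of them. These letters are a description of the windows and do not show binding.

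Gene totals lay between 17780707 reads (WT replicate 2) and 27485129 reads (KO replicate 1), and the members were counted 78 to 4845 times per library. CPM below is the count scaled to library size with TMM factors. Egfr averaged 47.4 ± 6.29 CPM over the WT pools against 17.3 ± 1.29 over the KO pools (SD, n = 3 each). Lyz2, the myeloid lysozyme gene, averaged 5028 ± 1448 CPM over WT and 18.6 ± 1.06 over KO pools. Both genes were lower in every KO pool than in every WT pool. The part of each in other KO and WT differences cannot be told apart here. Itgam, which encodes Cd11b, was counted in every pool, averaging 104 ± 31.5 CPM over WT and 148 ± 28.0 over KO pools. The 12 resident macrophage markers summed to 13128, 7214 and 8799 CPM in WT replicates 1, 2 and 3. In the KO pools they summed to between 12847 and 13632 CPM, so WT replicates 2 and 3 were both lower than the other pools. WT replicate 2 stood apart in its 15 T cell markers, which summed to 967 CPM against 66.7 to 392 CPM in the other pools. Results are given below both with and without that pool.

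The markers that were high in WT replicate 2 included genes of immature thymic T cells. Rag1, the recombinase that assembles antigen receptor genes, was at 0.115, 250 and 0.326 CPM in WT replicates 1, 2 and 3 and at 37.9, 0.746 and 41.5 CPM in KO replicates 1, 2 and 3. Dntt, which adds bases at the receptor joints, was at 0.615, 139 and 0.558 CPM in WT and at 21.5, 0.746 and 35.5 CPM in KO. WT replicate 2 was the highest pool for both genes, KO replicates 1 and 3 came next, and the other three pools were at or under 0.746 CPM. Over the 12 thymocyte markers the sum was 1546 CPM in WT replicate 2, 387 and 481 CPM in KO replicates 1 and 3, and 146 to 163 CPM in WT replicates 1 and 3 and KO replicate 2. In those 3 pools Rag2 and Ptcra, both confined to immature lymphocytes, had 0 or 1 read each. The part of immature T cells in the cell cycle levels of WT replicate 2 and KO replicates 1 and 3 was not tested beyond the fits given below. In bulk RNA, fewer cells of a type and less RNA per cell cannot be told apart.

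**Figure D1:**
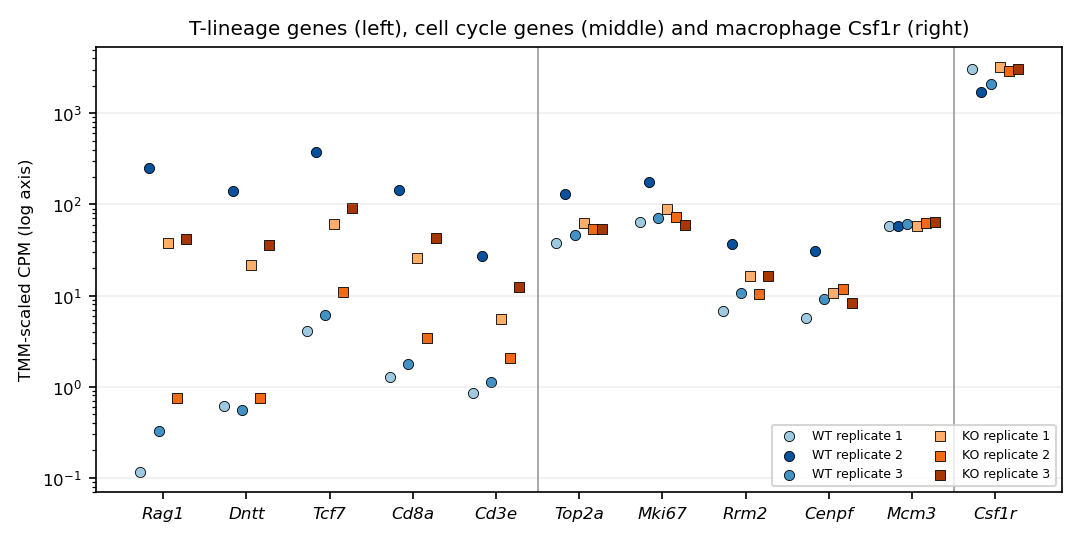
TMM-scaled CPM (log axis) of 5 T-lineage genes, 5 cell cycle genes and the macrophage receptor gene Csf1r, with 1 point per pool. WT replicate 2 is the highest pool for the T-lineage genes and for Top2a, Mki67, Rrm2 and Cenpf, while Mcm3 lies between 57.4 and 64.4 CPM in all 6 pools.

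Replication genes varied between pools by different amounts, least for Mcm3, Mcm4 and Pcna and most for Rrm2. Mcm3, a helicase subunit, was at 57.7, 57.4 and 60.8 CPM in WT replicates 1, 2 and 3 and at 58.2, 62.0 and 64.4 CPM in the KO replicates in the same order, which is used throughout. Its highest pool was 1.12 times its lowest. Mcm4, another subunit, was at 48.1, 54.2 and 44.9 CPM in WT and at 47.7, 50.5 and 57.7 CPM in KO. Mcm6 was at 52.0, 75.6 and 58.4 CPM in WT and at 64.9, 68.2 and 59.8 CPM in KO. For Mcm6 the WT pools spanned the KO pools, with WT replicate 2 highest and WT replicate 1 lowest.

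Pcna, the polymerase clamp, was the only replication gene besides Mcm3 and Mcm4 that was not highest in WT replicate 2. Its levels were 180.1, 167 and 194 CPM in WT and 157, 149 and 188 CPM in KO, and the groups overlapped. The subunits Mcm2, Mcm5 and Mcm7 were, like Mcm6, highest in WT replicate 2. Mcm2 was at 28.4, 44.6 and 32.6 CPM in WT and at 39.3, 37.9 and 38.9 CPM in KO. Mcm5 was at 40.3, 58.7 and 42.6 CPM in WT and at 50.4, 53.2 and 47.0 CPM in KO. Mcm7 was at 31.6, 55.2 and 30.3 CPM in WT and at 36.7, 39.6 and 34.7 CPM in KO. For these 3 genes the KO pools lay between WT replicate 2 above and both other WT pools below.

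The nucleotide enzymes differed from each other in spread. Tyms, thymidylate synthase, was at 8.23, 13.01 and 8.0 CPM in WT and at 9.73, 9.10 and 9.97 CPM in KO, a highest-to-lowest ratio of 1.63. Rrm2, the regulated subunit of ribonucleotide reductase, was at 6.69, 37.1 and 10.8 CPM in WT and at 16.5, 10.5 and 16.6 CPM in KO. Its ratio of 5.54 was the widest of all 31 members. The other replication ratios ran from 1.12 to 1.82, and the median over all 9 was 1.46. Over all 15707 genes tested the median ratio was 1.64.

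Mitosis genes were highest in WT replicate 2 for all 18 members and lowest in WT replicate 1 for 17 of them. Their median ratio of highest to lowest pool was 2.67. Ccna2, cyclin A2, was at 10.3, 33.2 and 11.3 CPM in WT and at 17.3, 15.8 and 12.3 CPM in KO. Ccnb2, cyclin B2, was at 8.38, 18.6 and 10.3 CPM in WT and at 12.8, 12.8 and 12.0 CPM in KO. Cdk1, their kinase, was at 5.42, 14.4 and 7.81 CPM in WT and at 9.31, 9.77 and 8.26 CPM in KO. In each of these 3 genes the 3 KO pools sat above WT replicates 1 and 3 and below WT replicate 2. Cks2, a small Cdk-binding protein, was the exception in size, at 12.1, 14.5 and 11.3 CPM in WT and at 14.0, 11.8 and 12.8 CPM in KO, a ratio of 1.28.

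Checkpoint and chromosomal passenger genes showed the same order. Bub1b, a spindle checkpoint kinase-like protein, was at 14.5, 29.9 and 15.8 CPM in WT and at 24.5, 20.4 and 18.3 CPM in KO. Birc5, survivin of the passenger complex, was at 4.96, 13.3 and 6.46 CPM in WT and at 9.84, 8.99 and 7.95 CPM in KO. Ube2c, the ubiquitin-conjugating enzyme of mitotic exit, was at 5.69, 15.5 and 7.30 CPM in WT and at 10.4, 9.61 and 8.34 CPM in KO. KO pools were again between WT replicate 2 and the other WT pools. Bub1, Aurkb and Cdc20 were highest in WT replicate 2 too, with ratios of 2.65, 1.91 and 1.86, but had at least 1 KO pool at or below WT replicate 3.

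Among spindle and kinetochore genes was the mitosis gene of widest range. Cenpf, a large kinetochore protein, was at 5.65, 31.02 and 9.16 CPM in WT and at 10.6, 11.8 and 8.22 CPM in KO, a ratio of 5.49. Cenpe, a motor protein of the kinetochore, was at 8.84, 27.7 and 12.2 CPM in WT and at 15.1, 14.1 and 10.1 CPM in KO. Kif11, the motor that pushes spindle poles apart, was at 11.1, 37.7 and 13.7 CPM in WT and at 19.1, 13.6 and 18.7 CPM in KO. KO replicate 3 lay below WT replicate 3 for Cenpf and Cenpe, and KO replicate 2 lay below it for Kif11, so their groups overlapped even with WT replicate 2 set aside.

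Tpx2, which activates the kinase Aurka on spindle fibres, was at 11.4, 27.2 and 12.7 CPM in WT and at 18.01, 16.5 and 11.9 CPM in KO. Aurka itself was at 4.46, 9.42 and 4.65 CPM in WT and at 5.42, 5.45 and 5.51 CPM in KO. Nusap1, a spindle-bundling protein, was at 6.995, 21.5 and 7.16 CPM in WT and at 12.8, 8.28 and 9.42 CPM in KO. Aurka had almost equal levels in the KO pools, each above WT replicates 1 and 3. Ccnb1 (cyclin B1) and Plk1 (the mitotic Polo kinase) ran from 2.998 to 11.1 and from 3.31 to 9.63 CPM, lowest in WT replicate 1 and highest in WT replicate 2.

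The 4 further members are commonly used to mark dividing cells or are abundant in them. Mki67, which coats mitotic chromosomes, was at 64.8, 177 and 70.0 CPM in WT and at 88.9, 73.5 and 59.8 CPM in KO. Top2a, the topoisomerase that untangles DNA before segregation, was at 38.0, 131 and 45.6 CPM in WT and at 63.1, 53.6 and 54.0 CPM in KO. Their ratios of highest to lowest pool were 2.96 and 3.45. Hmgb2, a chromatin protein, was at 88.2, 130.0 and 69.0 CPM in WT and at 94.0, 85.6 and 117 CPM in KO. Stmn1, a regulator of microtubules, was at 21.4, 41.5 and 22.6 CPM in WT and at 33.0, 27.1 and 32.2 CPM in KO. For Mki67 the lowest of all pools was KO replicate 3, whereas for Top2a and Stmn1 it was WT replicate 1.

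**Figure D2:**
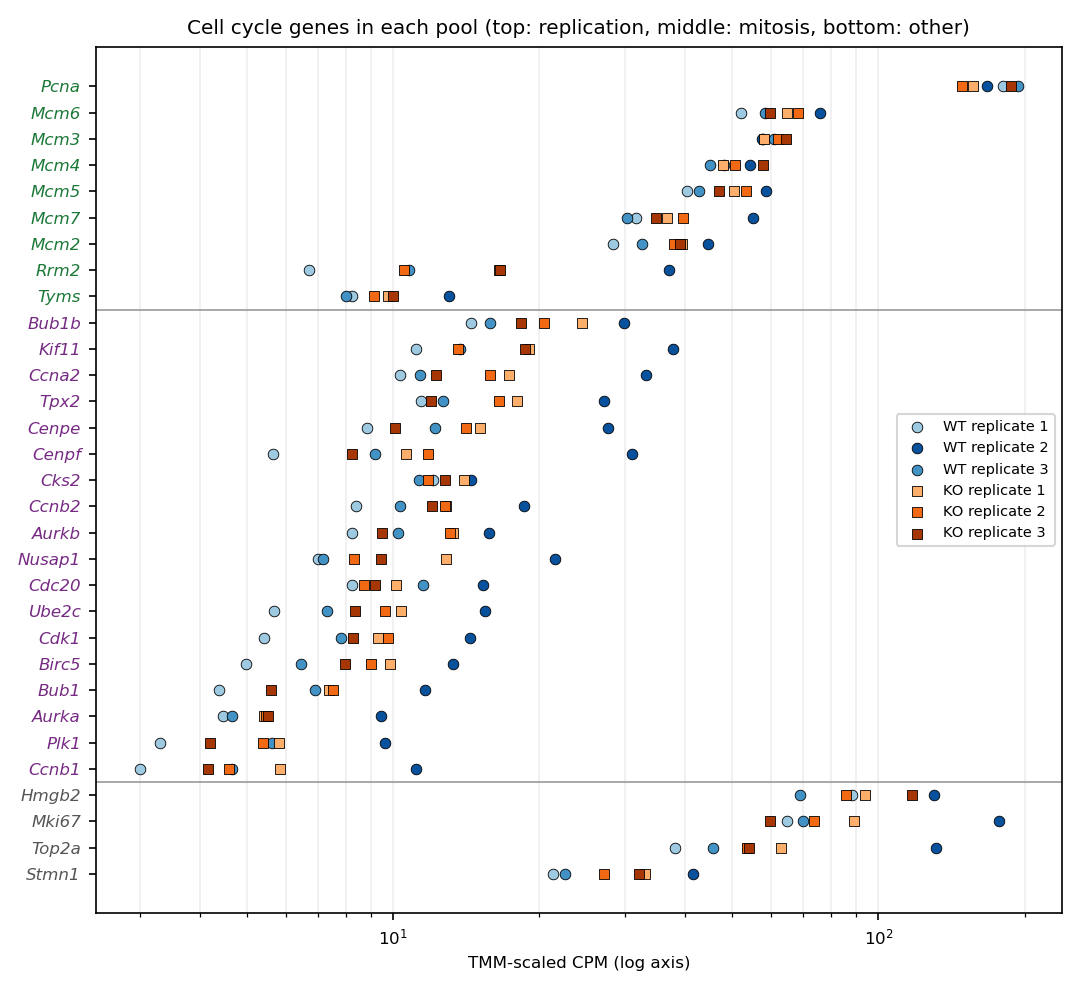
TMM-scaled CPM (log axis) of the 31 cell cycle genes, sorted within role by mean level, with circles for WT and squares for KO pools. WT replicate 2 is the highest pool for 28 of the 31 genes and for all 18 mitosis genes.

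Levels can be compared between genes only per length of transcript. Per kilobase of annotated exon, Pcna was the highest member with a mean of 71.8 CPM, followed by Hmgb2 (32.4), Cks2 (18.4) and Mcm3 (16.0). The lowest were Cenpf (0.826), Ccnb1 (1.32) and Tyms (1.59). Mcm subunits lay between 5.31 (Mcm2) and 16.0. Mki67 was at 8.85 and Top2a at 7.13. The exon length joins all annotated transcripts of a gene, so these values are lower than for the transcripts in use.

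WT replicate 2 was the highest of the 6 pools for 28 of 31 members, beside 18.5% of all genes tested. It was at least 1.5 times every other pool for 13 members, beside 3.6% of all genes. Those 13 were 1 replication gene, 10 mitosis genes and 2 of the further genes. Relative to the mean of WT replicates 1 and 3, its level had a median ratio of 1.42 over replication genes (0.894 for Pcna to 4.24 for Rrm2) and of 2.22 over mitosis genes (1.24 for Cks2 to 4.19 for Cenpf). Over all genes the median was 0.957. At the other end, WT replicate 1 was the lowest pool for 23 of 31 members, beside 12.4% of all genes. That pool had the highest sum of the globin-rich erythroid list (1729 CPM, against 92.6 to 193 CPM elsewhere) and of the neutrophil precursor list (407 CPM, against 37.4 to 204 CPM elsewhere). The erythroid transcription factor genes Gata1 and Klf1 were at or under 0.115 CPM in every pool. The part of these cell types in the cell cycle levels was not tested.

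Replication was set against mitosis in each pool as the mean log2(CPM + 0.5) over the 9 replication genes minus that over the 18 mitosis genes. The size of this gap also reflects transcript length, so only its difference between pools is informative. The gap was 2.19, 1.497 and 1.99 in WT replicates 1, 2 and 3 and 1.81, 1.91 and 2.17 in KO replicates 1, 2 and 3. It was narrowest in WT replicate 2, where the mitosis mean was 4.22 against 2.90 and 3.23 in the other WT pools and the replication mean was 5.72 against 5.10 and 5.21. In KO the mitosis means were 3.57, 3.43 and 3.26 and the replication means 5.38, 5.34 and 5.43. KO replicate 3 had the widest gap of the KO pools, with the highest replication mean and the lowest mitosis mean among them.

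Averaged over pools, the gap was 1.89 ± 0.36 in WT and 1.97 ± 0.19 in KO (SD, n = 3), a difference of 0.07 that is smaller than the spread within either group. Without WT replicate 2 the WT mean was 2.09 ± 0.15 (n = 2) and the difference was -0.13, again smaller than the spread. Without KO replicate 3 it was -0.03. No p is given for these means over chosen genes.

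**Figure D3:**
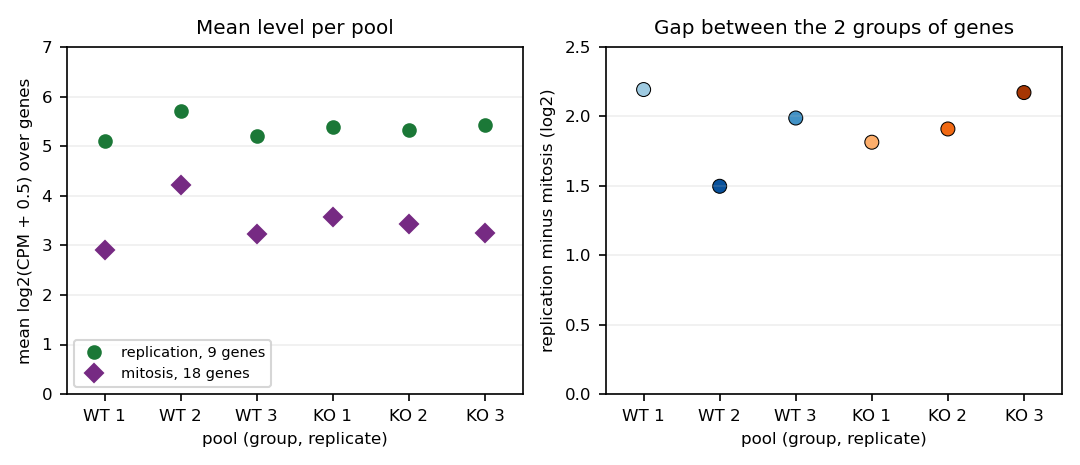
Left, mean log2(CPM + 0.5) over 9 replication and 18 mitosis genes in each pool. Right, the gap between both means, which is narrowest in WT replicate 2 (1.497) and lies between 1.81 and 2.19 in the other 5 pools.

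The deletion was compared with control over all 15707 genes in edgeR's quasi-likelihood test, with 3 pools a group. None of the 31 members passed the Benjamini-Hochberg adjusted threshold of 0.05, beside 0.0127% of all genes (0% higher, 0.0127% lower). The genes that passed were Lyz2 (log2 fold change -8.08, edgeR adjusted p = 0.000178) and Egfr (-1.46, edgeR adjusted p = 0.0449). Members had edgeR adjusted p-values from 0.558 (Cdc20) to 0.999 (Ube2c). At an unadjusted p under 0.05 there were 0 members, beside 15.3% of all genes (4.77% higher in KO and 10.6% lower). DESeq2, which called 5.22% of all genes (1.08% higher, 4.14% lower), limma-voom, and edgeR with the replicate number as a block (0.0191% of all genes) also called 0 members. Every KO pool lay above every WT pool for 0 members, beside 9.62% of all genes, and below for 0 members, beside 10.1%.

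With all 6 pools the median log2 fold change, KO against WT, was 0.05 over replication genes, -0.17 over mitosis genes and 0.01 over all genes tested. The mitosis median was nearer to 0 in limma-voom (-0.0089) and under the replicate block (-0.06). Signs were mixed, with 5 of 9 replication and 5 of 18 mitosis genes positive. The most negative values were Cenpf at -0.58 (SE 0.56), Mki67 at -0.49 (SE 0.38) and Ccnb1 at -0.36 (SE 0.45). The highest were Mcm2 at 0.14 (SE 0.17) and Birc5 at 0.12 (SE 0.35). Standard errors were widest for Rrm2 (0.57) and Cenpf and narrowest for Mcm3 (0.09), whose log2 fold change was 0.07.

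Without WT replicate 2, the log2 fold changes of 17 members changed sign, and none passed (edgeR adjusted p from 0.343 for Stmn1 to 0.903 for Cdc20, beside 0.00625% of all genes called). Log2 fold changes were positive for 8 of 9 replication, 17 of 18 mitosis and all 4 further genes, Pcna (-0.19) and Cdc20 (-0.09) being the exceptions. WT replicate 2 was the highest pool for 28 of 31 members, so setting it aside lowers the WT mean of each of those. KO replicates 1 and 3, the next highest pools for Rag1 and Dntt, stayed in this fit. The medians were 0.24 over replication, 0.39 over mitosis and 0.01 over all genes. Rrm2 was at 0.73 (SE 0.30), Birc5 at 0.64 (SE 0.21), Ube2c at 0.53 (SE 0.21) and Nusap1 at 0.51 (SE 0.23). Top2a was at 0.44 (SE 0.13) and Mki67 at 0.13 (SE 0.17). At an unadjusted p under 0.05 there were 10 members, all higher in KO, beside 3.72% of all genes higher and 8.53% lower at that level: Stmn1, Top2a, Birc5, Mcm2, Bub1b, Ube2c, Ccnb2, Rrm2, Ccna2 and Mcm5.

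**Figure D4:**
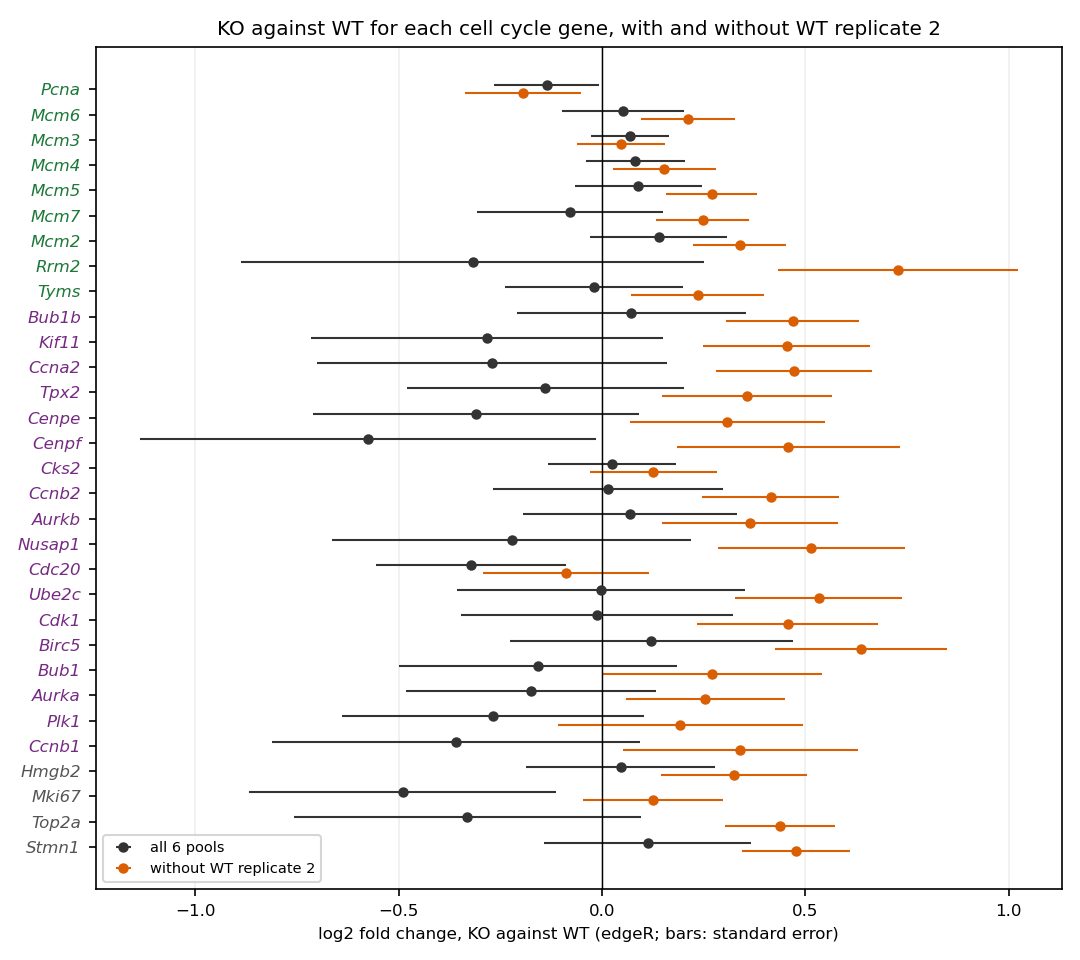
Log2 fold change, KO against WT, of the 31 genes with all 6 pools (black) and without WT replicate 2 (orange), with standard errors. Of the 31 values, 12 are positive with all pools and 29 without WT replicate 2, and none passed the adjusted threshold in either fit.

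With that pool set aside, every KO pool lay above both remaining WT pools for 15 of 31 members, beside 15.1% of all genes, and below for 0 members, beside 14% of all genes. The 15 were the replication genes Mcm2, Mcm5, Mcm6, Mcm7 and Tyms, the mitosis genes Ccna2, Ccnb2, Cdk1, Ube2c, Bub1b, Aurka, Birc5 and Nusap1, and Top2a and Stmn1. Markers of immature T cells were higher in KO replicates 1 and 3 than in those 2 WT pools. KO replicate 2, whose thymocyte sum of 163 CPM was near the 156 and 146 CPM of WT replicates 1 and 3, lay above both of them for 23 of 31 members, beside 36.9% of all genes. By gene, KO replicate 2 lay above both WT pools for 8 of the 11 thymocyte markers that passed the filter. It lay below both for 2. Other lymphocyte markers differed too. T cell markers of KO replicate 2 summed to 128 CPM against 67.1 and 66.7 CPM, above both WT pools for 14 of 15 genes. Its B cell markers summed to 825 CPM against 475 and 341 CPM, above both for 8 of 8 genes. The part of these cells in the 23 members was not tested. Against those 2 pools alone, KO replicate 2 had median log2 fold changes of 0.27 over replication and 0.43 over mitosis genes. This comparison rests on 1 KO pool, and 0 genes of the whole table were called in it.

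A fit of all 6 pools with the mean log2 level of the thymocyte list as a covariate gave medians near those without the covariate. That level was 1.33, 5.98 and 1.37 in WT and 3.91, 1.72 and 4.46 in KO. Its group means lay close together, so the covariate could shift a KO and WT difference only a little. Near-equal medians therefore do not show the part of immature T cells. The medians were 0.04 over replication and -0.14 over mitosis genes, against 0.05 and -0.17 without it. With the covariate 0 members passed (edgeR adjusted p from 0.401 to 0.998, beside 0.00637% of all genes called). This fit and the comparison of KO replicate 2 alone were added after the marker levels were seen. Leaving out WT replicate 1 instead gave medians of -0.05 and -0.40, all 18 mitosis genes negative, and 0 members called by edgeR (lowest adjusted p 0.144, Cdc20) beside 8.3% of all genes (2.33% higher, 5.97% lower). The sign of the mitosis median therefore differed between the fits without WT replicate 1 and without WT replicate 2.

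Other genes of the same processes, taken from lists chosen by function, were read in the same fit. Of 37 further replication genes, 0 passed in edgeR in either direction and 2 had an unadjusted p under 0.05, a smaller share than the 15.3% of all genes, with a median of -0.02 using all pools and 0.17 without WT replicate 2. The most abundant were Rrm1, the partner of Rrm2, at -0.12 (SE 0.13), Rpa1, which binds single-stranded DNA, at 0.02, Slbp, the histone mRNA binder, at -0.09, and Rfc1, a loader of Pcna, at 0.07. Rrm1 was at 54.2, 73.0 and 64.0 CPM in WT and at 57.3, 54.7 and 64.5 CPM in KO, a narrow range beside that of Rrm2. WT replicate 2 was highest for 19 of these 37 genes.

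Among 52 further mitosis genes 0 passed in edgeR and 2 had an unadjusted p under 0.05, again a smaller share than over all genes, with a median of -0.13 with all pools and 0.24 without WT replicate 2. WT replicate 2 was highest for 43 of them, and at least 1.5 times every other pool for 21. Smc4, a condensin subunit, was at 59.3, 109 and 64.6 CPM in WT and at 75.1, 80.6 and 77.2 CPM in KO, with the KO pools between WT replicate 2 and both other WT pools, as for Mcm2, Mcm5, Mcm6, Mcm7, Ccna2 and Ccnb2. Kif23, a motor of the final cell split, had a log2 fold change of 0.29, Incenp of the passenger complex 0.15 and the condensin gene Ncapd2 -0.37 (SE 0.35). Ncapd2 was 2.53 times higher in WT replicate 2 than in the mean of the other WT pools, against 1.18 for Kif23.

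At the median, regulators upstream of both programmes ranged less between pools than the mitosis members. The median ratio was 1.46 over the first list below and 1.51 over the second, and the widest ratios were 3.70 and 3.20. WT replicate 2 was highest for 8 of the 16 genes and 6 of the 9, beside 18.5% of all genes. It was at least 1.5 times every other pool for 3 of the 16 and 0 of the 9, beside 3.6%. Over 16 genes of the E2F, retinoblastoma and FOXM1 circuits the median log2 fold change was 0.02. In edgeR 0 of them passed, beside 0.0127% of all genes, and 2 had an unadjusted p under 0.05, beside 15.3% of all genes. Rb1 (0.07) and Rbl2 (0.05), which hold E2F targets off, were the most abundant, followed by E2f4 (0.09) and Tfdp1 (0.16). Of 9 genes of G1 cyclins and kinases 0 passed in edgeR and 0 had an unadjusted p under 0.05, beside the same 15.3%. Their median was -0.04. The D cyclins that read growth signals were at 0.06 (Ccnd1), -0.16 (Ccnd2) and -0.04 (Ccnd3), with Cdk4 at 0.13. Ccnd1 was at 183, 168 and 240.5 CPM in WT and at 164, 248 and 204 CPM in KO, and was not highest in WT replicate 2.

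The last list held 11 genes that restrain division, with a median log2 fold change of 0.09. Cdkn1a, the p21 inhibitor, was at 926, 609 and 890.4 CPM in WT and at 856, 602 and 882 CPM in KO (log2 fold change -0.05, SE 0.22). Btg2 had 0.23, Btg1 0.15 and Ccng1 0.15. With all pools 0 of the 11 passed in edgeR, and 1 had an unadjusted p under 0.05, beside 15.3% of all genes. Cdkn1c, the p57 inhibitor, was at 39.9, 39.2 and 55.0 CPM in WT and at 19.0, 24.3 and 27.5 CPM in KO, with every KO pool below every WT pool. Of the 11 genes 1 lay below in this way, beside 10.1% of all genes, and 1 lay above, beside 9.62%. KO against WT, Cdkn1c differed by -0.92 on the log2 scale (SE 0.19, adjusted p = 0.173 in edgeR). It passed in DESeq2 (adjusted p = 0.00239), beside 4.14% of all genes called lower there. It also passed in edgeR without WT replicate 1 (adjusted p = 0.0314), beside 5.97% called lower. All 6 endothelial markers were below every WT pool in every KO pool, beside 10.1% of all genes. They summed to 1502 to 2522 CPM in WT and 795 to 1061 CPM in KO. All 6 mural markers were also below every WT pool in every KO pool, with sums of 1075 to 1845 CPM in WT and 650 to 939 CPM in KO. Fibroblast markers summed to 1755 to 5617 CPM in WT and 1318 to 1976 CPM in KO, which overlap. The part of these cell types in the Cdkn1c difference was not tested.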

How the data were processed

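RNA from 6 pools of hearts was sequenced as directional libraries, per the labels' protocols. The authors deposited raw counts of reads per Ensembl gene. The submitters' processing notes name STAR, HTSeq, DESeq2 and the genome build GRCm38, without settings or an annotation release. Reads naming no gene (5.90% to 8.62% of counted reads), ambiguous reads (1.49% to 1.72%) and multiply aligned reads (7.58% to 8.67%) stayed out of all tests, so members with near-identical copies can be undercounted. Symbols came from the gene name table, and exon lengths from GENCODE M21 (GRCm38).

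Counts were tested with edgeR 4.0.16 in R 4.3.3 (filterByExpr at a minimum count of 10, TMM, quasi-likelihood F test, two-sided, Benjamini-Hochberg over 15707 genes, threshold 0.05). SE is the size of the log2 fold change over the square root of F. Group levels are mean ± SD, and p-values measure the spread between pools, not between animals. Alternatives were DESeq2 1.42.0, limma-voom (limma 3.58.1), other scalings and filters, the replicate number as a block and each library left out. Tested on simulated data for the KO and WT comparison (15707 genes), the edgeR procedure found 39 of 100 genes given a 2-fold change, 83 of 100 given a 4-fold change, and 9 unchanged genes. Simulated counts were drawn independently for each gene, without shifts shared by many genes of a pool. The shares found may therefore not hold for the real pools. Figures used matplotlib 3.10.9. The members and lists were chosen with earlier results of these data known. Values per pool are given for the most abundant members of each role, any member that passed and any whose groups did not overlap with or without WT replicate 2. Rrm2 was added for its range. In further lists the 4 most abundant genes and any that passed are named.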

Additional observations from a re-analysis of the deposited data

How the results depend on the processing

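No member passed an adjusted p of 0.05 under any of the 15 other settings (adjusted p 0.144 to 1.00). Over all genes, 2 passed in the genotype-only edgeR fit, 809 in DESeq2, 1 in limma-voom, 782 without the filter, 1 with the thymocyte covariate, 0 without WT replicate 2, KO replicate 1 and KO replicate 3 (a design of 1 KO pool, too small to judge a call), and 1 to 1338 on leaving out 1 library (1338 without WT replicate 1, 2 without KO replicate 3 and 1 without each of the others in turn).

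Leaving out 1 library moved the replication median between -0.0545 (without WT replicate 1) and 0.24, the mitosis median between -0.40 and 0.39 (without WT replicate 2), and the difference in gap between -0.13 (without WT replicate 2) and 0.22 (without WT replicate 1). Without WT replicate 2, KO replicate 1 and KO replicate 3 the mitosis median was 0.43 and the difference in gap -0.18. The cause of these changes was not tested. Log2 fold changes of 27 members changed sign on leaving out a library: Mcm4 (-0.00554 to 0.15), Mcm5 (-0.00729 to 0.27), Mcm6 (-0.0545 to 0.21), Mcm7 (-0.23 to 0.25), Tyms (-0.14 to 0.24), Rrm2 (-0.71 to 0.73), Ccna2 (-0.55 to 0.47), Ccnb1 (-0.69 to 0.34), Ccnb2 (-0.20 to 0.42), Cdk1 (-0.28 to 0.46), Cks2 (-0.0441 to 0.13), Ube2c (-0.26 to 0.53), Bub1 (-0.43 to 0.27), Bub1b (-0.11 to 0.47), Aurka (-0.36 to 0.25), Aurkb (-0.11 to 0.36), Birc5 (-0.14 to 0.64), Plk1 (-0.57 to 0.19), Tpx2 (-0.36 to 0.36), Kif11 (-0.58 to 0.45), Nusap1 (-0.49 to 0.51), Cenpe (-0.60 to 0.31), Cenpf (-0.97 to 0.46), Mki67 (-0.73 to 0.13), Top2a (-0.63 to 0.44), Hmgb2 (-0.14 to 0.32) and Stmn1 (-0.0524 to 0.48). Mcm2, Mcm3, Pcna and Cdc20 kept their sign. Without the 3 libraries named above, 17 changed sign: Mcm7 (0.35), Tyms (0.17), Rrm2 (0.27), Ccna2 (0.54), Ccnb1 (0.27), Cdk1 (0.56), Ube2c (0.57), Bub1 (0.41), Aurka (0.26), Plk1 (0.27), Tpx2 (0.46), Kif11 (0.13), Nusap1 (0.23), Cenpe (0.42), Cenpf (0.67), Mki67 (0.12) and Top2a (0.36). There Mcm6 (0.30), Aurkb (0.50) and Birc5 (0.65) kept their sign.

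Signs also changed with limma-voom for Tyms (0.0362), Rrm2 (0.12), Cdk1 (0.15), Ube2c (0.18) and Nusap1 (0.0200), with a mean CPM of at least 5 for Ccnb2 (-0.0150) and Cks2 (-0.0012), with the thymocyte covariate for Cdk1 (0.0207), Cks2 (-0.0010) and Ube2c (0.0414), and with DESeq2 (0.00029), upper quartile scaling (0.0042) and no filter (0.0062) for Ube2c. Replicate numbers showed no sign of pairing the libraries: deviations of same-numbered WT and KO pools correlated at 0.128, -0.154 and 0.0237. Those of differently numbered pools correlated at -0.188 to 0.158. The replicate block called 3 genes in place of 2 and no member, and changed the sign of Tyms (0.0144), Rrm2 (0.068), Cdk1 (0.0938) and Ube2c (0.12).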
